A study of Mus musculus with 146 samples.

Results

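The genes described here are 10 genes of wound matrix and cell surface syndecans: Thbs1, Fn1, Vcan, Sdc1, Sdc3, Sdc4, Tgfbi, Spp1, Sparc and Plod2. They were taken by name from the 22721 genes of the count table, and each had exactly 1 row there. They were measured by RNA sequencing of bone marrow-derived macrophages, which were grown from marrow over 5 days with L929-conditioned medium (L929 is a fibroblast line that secretes macrophage growth factor). Each of the 146 libraries came from its own mouse of the outbred stock Crl:CFW(SW)-US_P08 (CFW), aged 16 weeks, with 60 labelled male and 86 labelled female. No treatment was given to any culture, so the comparisons are between sexes, plates and collection dates and across mice. The title of the series names a cholesterol network of macrophages and wound healing, and the genes below belong to the matrix side of that theme.

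Wound matrix is laid down, bound and remodelled by several cell types, and macrophages contribute both secreted proteins and surface receptors. Fibronectin (Fn1) and versican (Vcan, a large chondroitin sulfate proteoglycan that binds hyaluronan) build the provisional matrix. Thrombospondin 1 (Thbs1), osteopontin (Spp1), SPARC (Sparc) and the TGF-β-induced protein (Tgfbi) are matricellular proteins, which signal to cells from within the matrix more than they bear load. The syndecans Sdc1, Sdc3 and Sdc4 are transmembrane proteoglycans whose heparan sulfate chains bind fibronectin, thrombospondin and growth factors. Plod2 encodes a lysyl hydroxylase that prepares collagen for stable cross-links and is known as a target of hypoxia-inducible factors.

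Depth ran from 14483441 to 120926429 counts per library with a median of 43815187, and averaged 48010018 ± 20648674 counts in males and 46897845 ± 17778675 counts in females (SD, n = 60 and 86). The 7 plates held 6 libraries (plate 1) or 22 to 24 libraries (plates 2, 3, 4, 7, 8 and 10), and the libraries carried 28 collection date labels, 18 of which fell within 1 plate. Day and month may be exchanged in some date labels, so the labels were used as names and given no order. In 6 libraries the summed level of Y-linked genes went against the labelled sex at a threshold of 10 CPM (counts per 1000000): male libraries 57 and 59, and female libraries 5, 82, 85 and 86. All were kept under their labels, and sex results are also given without them. Macrophage markers summed to 12863 to 25907 CPM in males and 12100 to 22988 CPM in females, and erythroid markers to at most 1.27 CPM in any library. Much of the macrophage sum was 1 gene, Lyz2, with a median of 9571 CPM beside a median sum of 15848 CPM over all libraries. Female library 21 of plate 1 stood apart in the genes studied here: it held the highest Spp1 and Vcan and the lowest Sdc3 level of all 146, and the highest summed level of granulocyte precursor markers.

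Promoter sequences from RefSeq (build GRCm38.p6) matched 7 of the 10 genes, and 3 are shown because Vcan, Sdc1 and Tgfbi varied together across mice and have entries in that table (Thbs1 and Fn1, which varied with them, are named only). Each run is 120 bases just before the annotated gene (that of Vcan ends a few bases short of it), read 5′ to 3′ on the strand of the gene, with capitals marking matches on either strand to the motifs listed after them. The Vcan stretch is chr13:89742513-89742632 (minus strand), that of Sdc1 chr12:8771203-8771322 (plus strand) and that of Tgfbi chr13:56609403-56609522 (plus strand).
Vcan: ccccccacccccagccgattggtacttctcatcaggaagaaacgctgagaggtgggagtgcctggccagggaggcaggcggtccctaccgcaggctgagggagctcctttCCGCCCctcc
Sdc1: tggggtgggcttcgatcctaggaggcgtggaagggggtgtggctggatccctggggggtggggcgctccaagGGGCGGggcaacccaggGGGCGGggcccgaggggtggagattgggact
Tgfbi: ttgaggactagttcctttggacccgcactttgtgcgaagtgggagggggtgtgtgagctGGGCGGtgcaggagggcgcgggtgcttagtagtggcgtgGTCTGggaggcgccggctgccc
The motifs searched on both strands were the GC box GGGCGG, the SMAD-type element CAGAC, the AP-1 element TGANTCA, the core of the hypoxia response element ACGTG, the RUNX-type element AACCACA, and the TATA box TATAAA. In the 250 bases before the RefSeq start, GGGCGG was matched 2 times in Vcan, 3 times in Sdc1 and 1 time in Tgfbi, and 32.7% of all 32851 promoters in the table held it. CAGAC was matched 2 times in Tgfbi, 1 time in Sdc1 and not in Vcan, against 42.2% of all promoters. The letters of the AP-1 element, the hypoxia core, the RUNX-type element and the TATA box did not occur in these 3 windows, and they occur in 6.75%, 16.6%, 4.40% and 12.4% of all promoters. No base of any window lay in more than 1 match.

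Levels per length spanned more than 3 orders of magnitude. Osteopontin stood first at a median of 591 RPKM (CPM per kilobase of exon), followed by Sdc3 at 175, Tgfbi at 123 and Sdc4 at 38.6 RPKM. Thbs1 at 9.82, Fn1 at 8.19, Sdc1 at 6.37 and Vcan at 5.48 RPKM came next, and their interquartile ranges overlapped from each to the next, so that their order is within the spread between mice. Plod2 at 0.408 and Sparc at 0.30 RPKM came last, again with overlapping interquartile ranges. Tgfbi lay above Sdc4 in 146 of 146 libraries and Spp1 above Sdc3 in 144 of 146, whereas Thbs1 lay above Fn1 in 90 of 146. With the length of the longest transcript the medians were 10.2 RPKM for Thbs1 and 11.5 RPKM for Fn1, so their order depends on the length used.

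**Figure D1:**
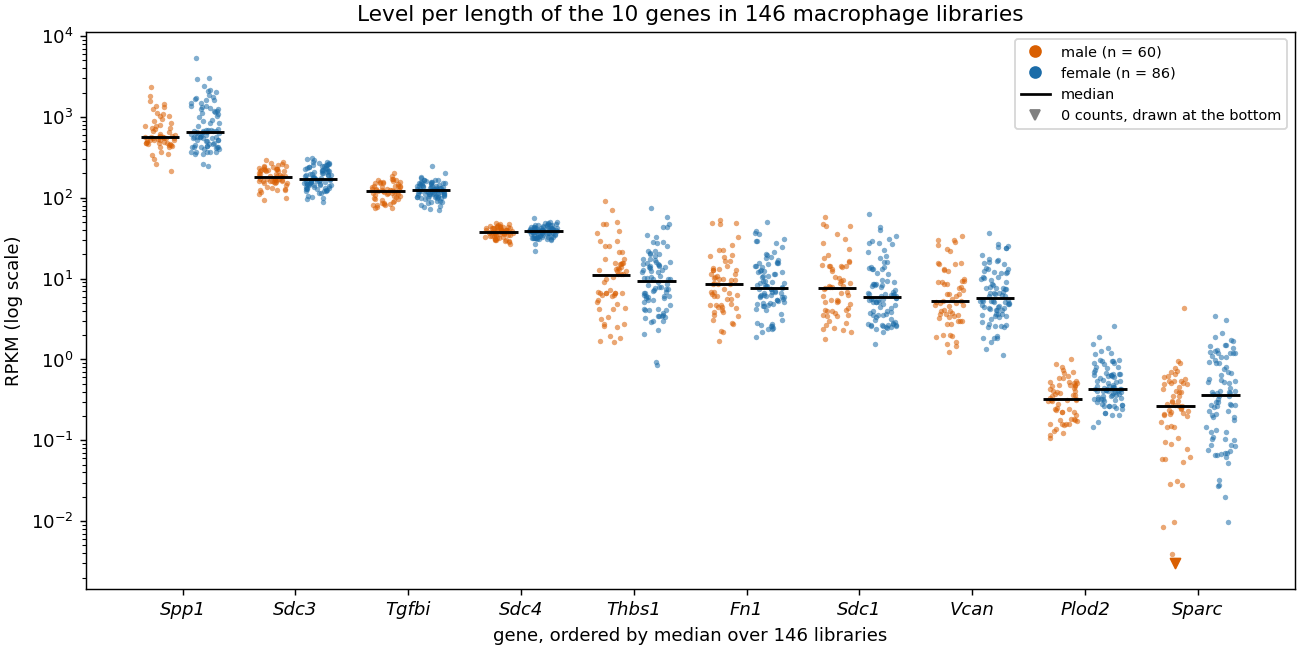
Level per length (RPKM, log axis) of the 10 genes in each library, male libraries (n = 60, orange) left of female libraries (n = 86, blue), with black bars at the medians; the triangle is the 1 male library with 0 Sparc counts. The genes fall into an abundant set (Spp1, Sdc3, Tgfbi, Sdc4), a middle set that is wide in both sexes (Thbs1, Fn1, Sdc1, Vcan) and a low set (Plod2, Sparc).

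The spread between mice was wide for 4 genes of the middle set. Thbs1 (chromosome 2, 118111876 to 118127133, plus strand, GRCm38 with GENCODE M21 here and below), a ligand of CD36 and CD47, ran from 5.24 to 558.5 CPM with a median of 59.6 CPM, and its highest library, male library 57, is among those whose Y-linked level went against the label. The SD of its log2 CPM over libraries was 1.31, higher than in 98.9% of 12060 tested genes. Sdc1 (chromosome 12, 8771323 to 8793715, plus strand), the syndecan best known from epithelia and plasma cells, ran from 5.87 to 242 CPM with a median of 24.3 CPM and an SD of 1.22, and Vcan (chromosome 13, 89655312 to 89742509, minus strand) ran from 16.2 to 534.9 CPM with a median of 79.3 CPM and an SD of 1.13. Fn1 (chromosome 1, 71585520 to 71653200, minus strand) ran from 19.7 to 620 CPM with a median of 95.7 CPM and an SD of 1.12. The level at the 90th percentile of mice was 7.59 times (Vcan) to 10.1 times (Sdc1) that at the 10th.

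Sdc3, Sdc4 and Tgfbi had a smaller spread. Sdc4 (chromosome 2, 164424247 to 164443887, minus strand), the focal adhesion syndecan, ran from 56.3 to 144 CPM with a median of 98.2 CPM, and its SD of 0.22 on the log2 scale lay at the 52.5th percentile of tested genes. Sdc3 (chromosome 4, 130792537 to 130826319, plus strand) ran from 526 to 1884 CPM with a median of 1047 CPM and an SD of 0.42, and Tgfbi (chromosome 13, 56609523 to 56639562, plus strand) from 270 to 927.5 CPM with a median of 463 CPM and an SD of 0.34. Spp1 was wide, from 349 to 8935 CPM with a median of 975 CPM and an SD of 0.81. Without female library 21 its highest level was 4941 CPM.

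Sparc and Plod2 were low in these cultures. Sparc (chromosome 11, 55394500 to 55423183, minus strand), a collagen-binding matricellular protein, ran from 0 to 16.3 CPM with a median of 1.14 CPM, and its SD of 1.68 exceeded that of 99.6% of tested genes. The library with 0 counts, male library 24, had 46509943 counts, so a count of 0 there allows up to 0.0645 CPM, for counting error only. Plod2 (chromosome 9, 92542223 to 92608428, plus strand) ran from 0.574 to 13.95 CPM with a median of 2.20 CPM and an SD of 0.84. All 10 genes passed the filter on low counts. The largest share of 50-base stretches that any of them holds in common with another annotated gene was 8.78%, in Spp1. Exons of Thbs1, Fn1, Sdc3, Spp1 and Plod2 overlap those of other annotated genes over 208 to 463 bases, and since the kit is not stated to keep strand, reads there cannot be assigned to 1 gene.

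The comparison of sexes asks which of these genes differ between males and females once plate is allowed for. Plod2 was lower in males: it averaged 1.99 ± 1.10 CPM in males and 3.09 ± 2.10 CPM in females (SD, n = 60 and 86). Male libraries had a lowest, median and highest Plod2 level of 0.574, 1.76 and 5.50 CPM, and female libraries of 0.796, 2.35 and 13.95 CPM, so the groups overlapped over most of their range. By edgeR's quasi-likelihood test the fitted log2 difference, male minus female, was -0.61 ± 0.13 (SE; adjusted p of 0.00104). It was lower in the mean of males on 7 of 7 plates, with means of 1.45 CPM in males and 2.76 CPM in females in its largest log2 ratio of means (plate 4), and 1.77 CPM in males and 2.10 CPM in females in its smallest (plate 2).

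None of the other 9 genes passed the threshold for sex, where 605 of 12060 genes, or 5.02%, were called in either direction. Spp1 averaged 1155 ± 646 CPM in males and 1537 ± 1265 CPM in females, a log2 difference of -0.33 ± 0.15 (SE) with an adjusted p of 0.190 by edgeR's test. Sparc averaged 1.44 ± 2.15 CPM in males and 2.30 ± 2.51 CPM in females, a log2 difference of -0.60 ± 0.28 (SE) with an adjusted p of 0.216 by the same test. For both, the mean of males was below that of females on 6 of 7 plates. Sdc1 stood at 45.2 ± 46.6 CPM in males and 37.6 ± 40.4 CPM in females, and the log2 differences of the remaining 6 genes lay between -0.04 and 0.14. Vcan had a log2 difference of -0.02 in this fit, and its sign turned with the batch terms. Without the 6 libraries that went against their labels, Plod2 was still called, at -0.64 on the log2 scale (adjusted p of 0.000414, edgeR). Between plates the sex difference did not pass the threshold for any of the 10 genes, where 5 of 12060 genes, or 0.0415%, were called by edgeR's test of the interaction. At an unadjusted p under 0.05, 365 genes and 1 of the 10 were past that test.

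**Figure D2:**
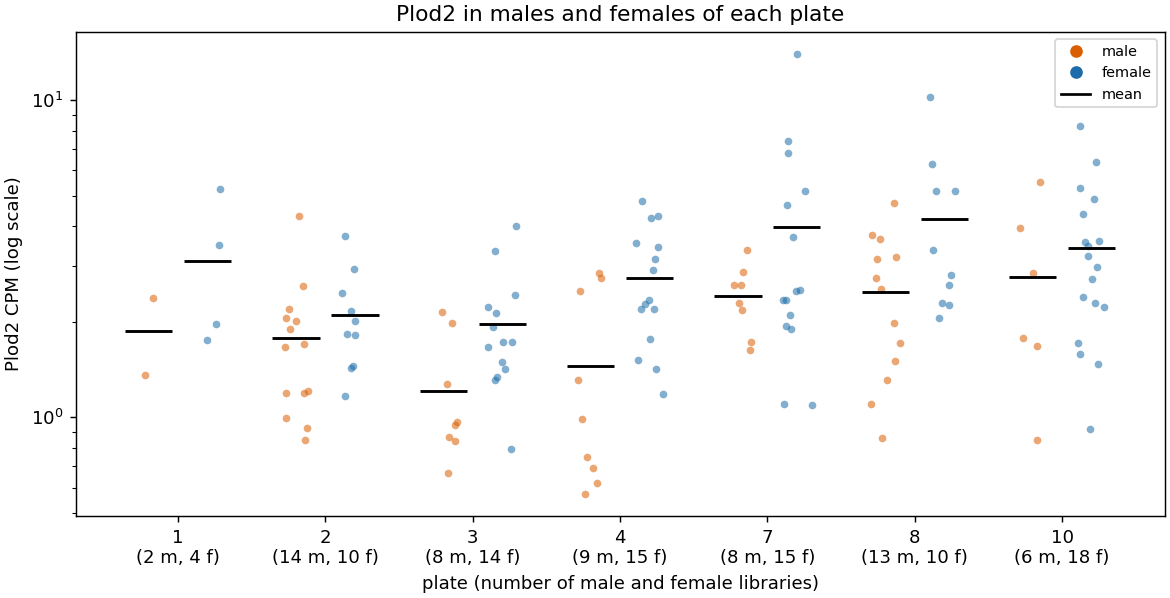
Plod2 level (CPM, log axis) of each library by plate, males (orange) left of females (blue), with black bars at the means and the number of libraries of each sex under the plate number. The male mean lies below the female mean on every one of the 7 plates, while single libraries of both sexes overlap on each.

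Several collagen and stromal genes were lower in males, as Plod2 was. Of 8 tested stromal markers 3 were lower in males, where 2.84% of all tested genes were, and none was higher: Col1a1 (collagen I) averaged 0.713 CPM in males and 2.34 CPM in females with a log2 difference of -1.61, Col1a2 had one of -1.35, and Pdgfrb, a receptor of mural cells and fibroblasts, one of -0.34. The list's median log2 difference was -0.61, against 0.00 over all tested genes. Summed stromal markers ran from 3.31 to 24.8 CPM with a median of 9.87 CPM in males, and from 4.26 to 94.3 CPM with a median of 12.6 CPM in females, and Lum, a fibroblast proteoglycan, had a median of 0. In the matricellular list Postn (periostin) and Tnc (tenascin C) were lower in males, with log2 differences of -1.76 and -1.20, among 5 tested genes. Of 11 tested genes of collagen hydroxylation and cross-linking, 4 were lower in males: Lox at -1.14, the collagen chaperone Serpinh1 at -0.81, and Ppib and P4hb at -0.07 each. Ppib shares 35.9% of its 50-base stretches with other genes and is uncertain. The hypoxia list had 0 of 14 genes called for sex by edgeR's test, beside 5.02% of all tested genes, so the count is near the background. At an unadjusted p under 0.05 in that test it had 1 (Vegfa). Plod2 itself had an r of 0.16 with the stromal score described below (adjusted p of 0.246, limma). Whether either list bears on the sex difference of Plod2 was not tested.

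Of 7 tested syndecans, glypicans and related proteoglycans outside the 10 genes, 1 was called, beside 5.02% of all tested genes. Sdc2 was lower in males at -0.43 on the log2 scale, with 12.1 CPM in males and 16.4 CPM in females. Of 16 tested genes of heparan sulfate synthesis and trimming, 3 were higher in males, where 2.17% of all tested genes were, namely Hpse (heparanase, which cuts the chains) at 0.26, Ndst1 at 0.12 and Xylt2 at 0.09. Among receptors of matrix, Stab1 was higher in males at 0.19, and among macrophage markers Mrc1 and Adgre1 were higher at 0.64 and 0.11.

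Collection date was called for each of the 10 genes by edgeR's test, where 10566 of 12060 genes, or 87.6%, were called, so the count is close to the background. Date accounted for 30.2% (Spp1) to 54.3% (Sdc3) of the variance of log2 CPM, against a median of 39.3% over tested genes. With plate in the model all 10 were still called for date. The share of all tested genes called in that fit is not given here, so this count has no background beside it. For plate alone, 6 of 10 were called (Fn1, Plod2, Sdc1, Sdc3, Tgfbi and Thbs1) beside 74.8% of tested genes, and once date was in the model 0 of 10 were, beside 11% of tested genes, by edgeR's test (0 of 10 and 3321 genes at an unadjusted p under 0.05). The Thbs1 call for plate, with an adjusted p of 0.0332 by edgeR's test, was lost without the libraries that went against their labels, at 0.0520. The labels also give a lane for each library, which entered no model, and some lanes of a plate hold libraries of 1 date only. Mice of 1 date label may also share a litter, a culture or an extraction, which the labels do not give. What date stands for therefore cannot be told apart.

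The date label 22/07/2010, with 5 libraries on plates 1 and 2, had the highest median of 5 of the genes among the 17 labels with 4 or more libraries. Thbs1 there had 127 to 423.5 CPM with a median of 286 CPM, against 15.8 to 289.8 CPM with a median of 20.2 CPM at the lowest label, 2011-10-03. Sdc1 had 69.1 to 242 CPM with a median of 179.6 CPM at the high label, against 9.70 to 118 CPM with a median of 10.5 CPM at the same low one. Vcan, Sdc4 and Tgfbi were highest there too, with medians of 350 CPM, 112 CPM and 637 CPM. For Thbs1 and Sdc1 the ranges of the high and low labels overlapped through a single library, male library 37, at 289.8 and 118 CPM.

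Sdc3, Spp1 and Sparc followed other dates. Sdc3 was highest on 16/06/2011 (983 to 1809 CPM, 10 libraries of plate 10) and lowest on 28/10/2010 (526 to 1064 CPM, 5 libraries). Spp1 was highest on 2011-07-04 with a median of 1992 CPM and lowest on 16/06/2011 with a median of 652 CPM. Sparc had a median of 4.18 CPM on 2010-02-12 and of 0.224 CPM on 2010-12-08, and these ranges did not overlap. Single libraries within a date still differed widely, as the plot of levels by date shows.

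**Figure D3:**
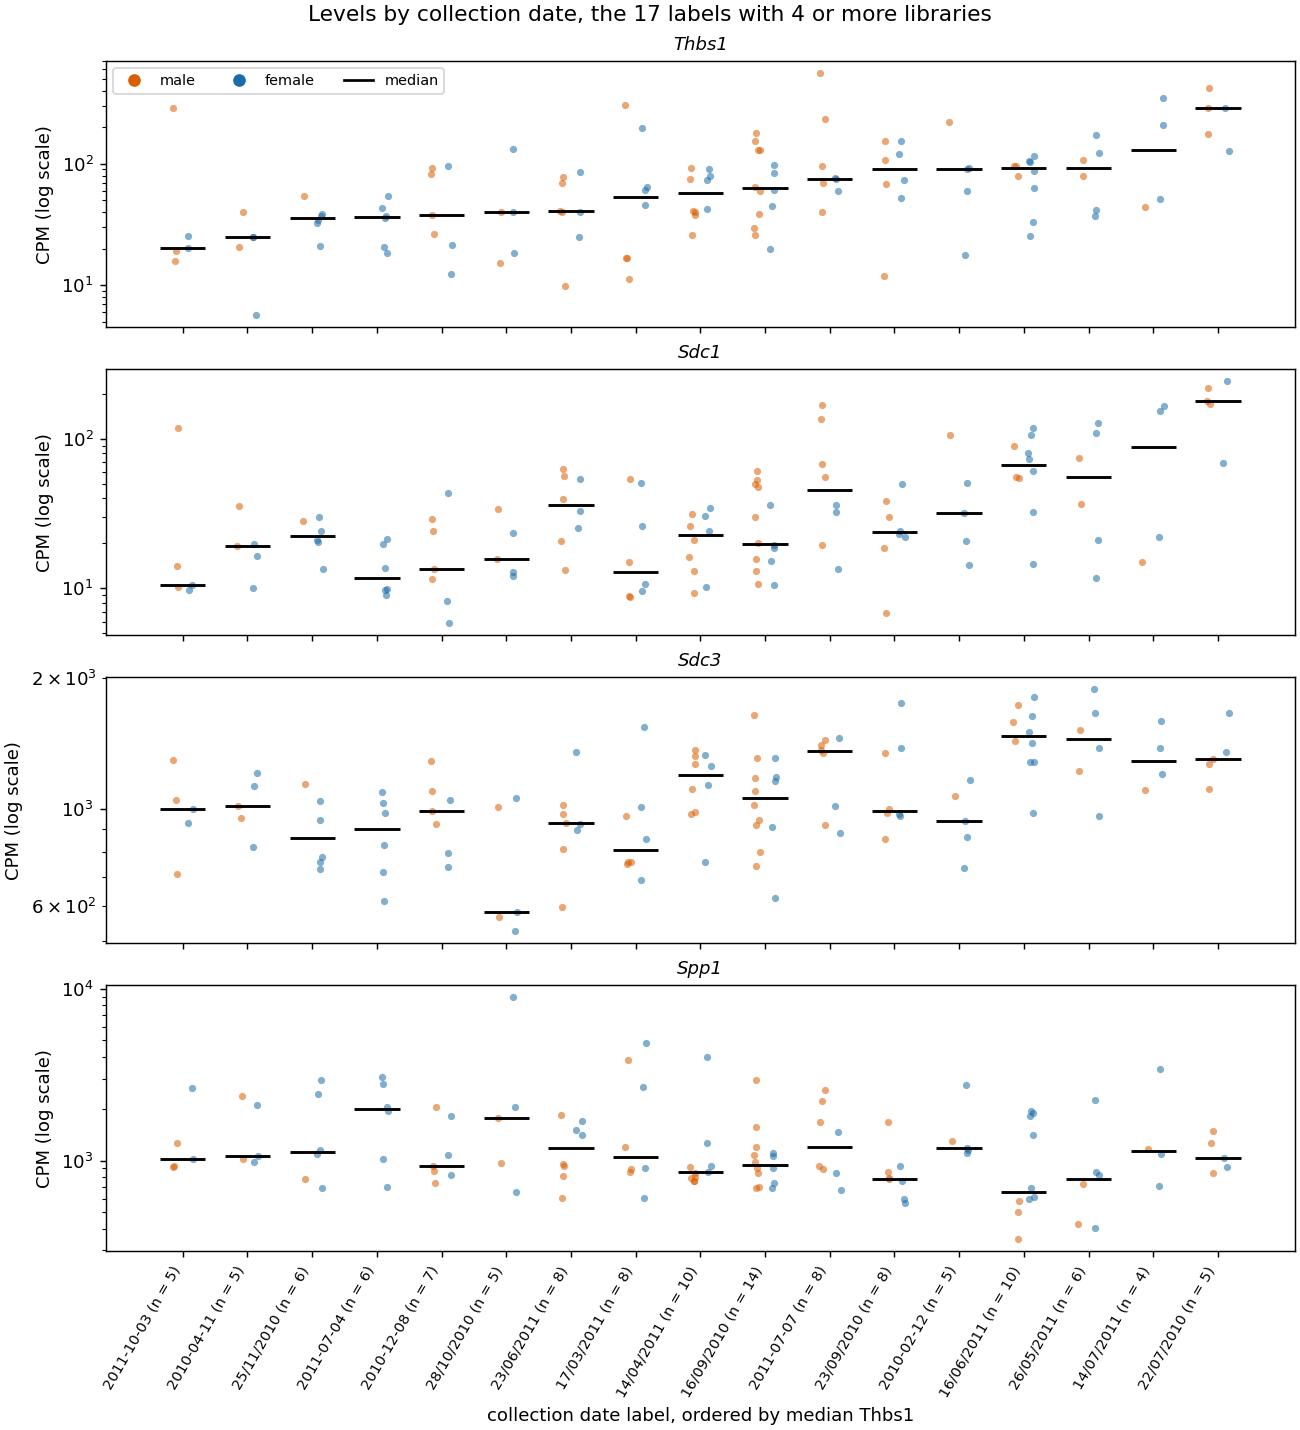
CPM (log axis) of Thbs1, Sdc1, Sdc3 and Spp1 in each library of the 17 collection date labels with 4 or more libraries, ordered by the median of Thbs1, males (orange) left of females (blue), black bars at the medians. Both Thbs1 and Sdc1 have their highest median at the last label (286 and 179.6 CPM) and their lowest at the first, while Spp1 has its highest median, 1992 CPM, at the label 2011-07-04.

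Correlations across mice ask which of these genes vary together after plate and sex are removed, and they were computed on residual log2 CPM over 146 libraries. The 10 genes did not form a single programme. Thbs1, Fn1, Vcan, Sdc1 and Tgfbi varied together, and Sdc3, Sdc4, Spp1, Sparc and Plod2 each stood alone when the tree of 1 minus r was divided at a height of 0.5. Of 45 pairs, 25 passed the threshold, an adjusted p under 0.05 over all tested genes in the regression of each gene on the other. Sdc3, with 64.1% of all tested genes called, passed with all genes of the group that varied together. Its r was 0.59 with Sdc1, 0.54 with Thbs1, 0.45 with Fn1, 0.30 with Tgfbi and 0.22 with Vcan. A called pair is ordinary for the wide genes, since 70% of all tested genes were called with Thbs1, 64.7% with Fn1, 56.7% with Vcan, 72.5% with Sdc1 and 56.7% with Tgfbi. It is less so for Sdc4, Plod2, Sparc and Spp1, with 19.8%, 14.4%, 7.84% and 5.92% of genes called.

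The closest pair was fibronectin and versican (Pearson r of 0.81, Spearman rho of 0.81), with within-plate r from 0.76 to 0.93 over 6 plates, and r of 0.84 in males and 0.79 in females. Thbs1 followed Fn1 with r of 0.80 (rho 0.83), Sdc1 with r of 0.78 (rho 0.80) and Vcan with r of 0.74 (rho 0.76), each positive on 6 of 6 plates. Vcan and Tgfbi had an r of 0.72 (rho 0.73). The permutation p within plates was 1e-05 for each of these 5 pairs and for both coefficients, the smallest that 100000 permutations can give, and their adjusted p in the fit over all genes was at most 7.1e-20. Leaving out the 2 libraries farthest from the median of the first gene left r between 0.70 and 0.81 for these pairs.

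At the other end, Sdc3 and Spp1 had an r of -0.13, Sdc3 and Sparc of -0.06, Spp1 and Plod2 of -0.02, Sdc4 and Sparc of 0.03, and Vcan and Sdc4 of 0.05, with permutation p from 0.135 to 0.838. Among the syndecans, Sdc1 went with Sdc3 at r of 0.59 and with Sdc4 at 0.34, and Sdc3 went with Sdc4 at 0.47. Plod2 passed with Sdc3 at r of 0.43 and with Sdc4 at 0.26. Its call with Sdc3 was lost with date removed (r of 0.28, adjusted p of 0.0740 by limma), and its r was negative (-0.11) on 1 of 6 plates. Sparc and Spp1 reached an r of 0.26, with an adjusted p of 0.0339 in the fit over all genes, and this call was lost without female library 21 (0.0910), without the libraries farthest from the median of Spp1 (0.161) and with date removed (0.195). Within single plates, with 22 to 24 libraries each, 8 to 14 of the 45 pairs were called.

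**Figure D4:**
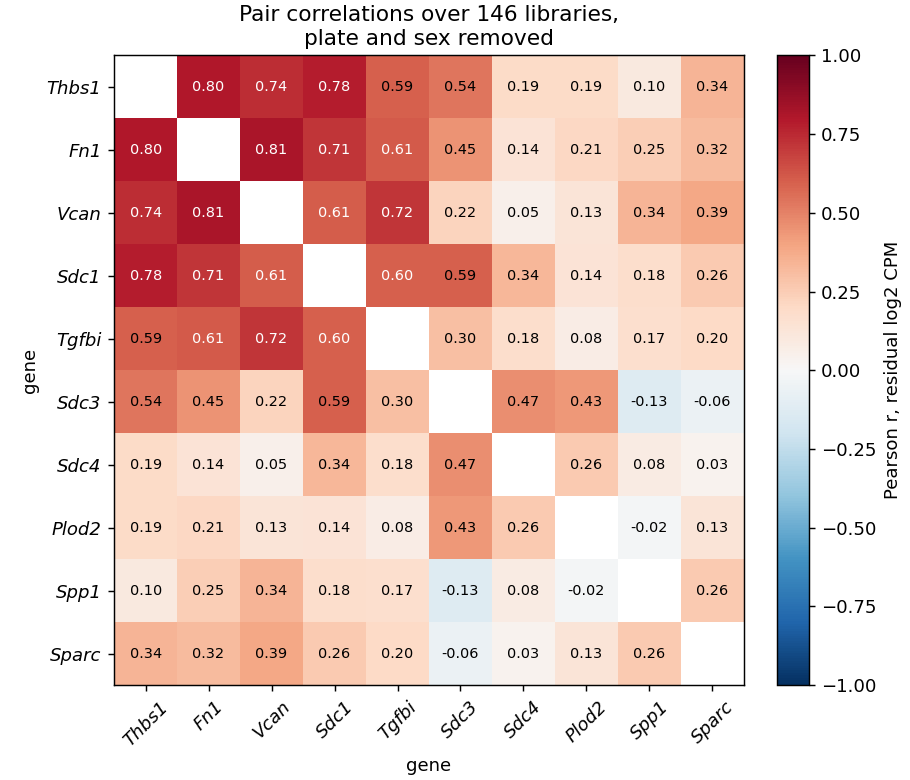
Pearson r of residual log2 CPM for the 45 pairs over 146 libraries, from blue (-1) through white (0) to red (1). Thbs1, Fn1, Vcan, Sdc1 and Tgfbi form a block with r of 0.59 to 0.81, and the lowest cell is Sdc3 with Spp1 at -0.13.

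The block of 5 genes tracked markers of monocytes and of granulocyte precursors, though neither these lists nor these genes alone did so. The score of a list is its mean standardised residual in a library, scaled to an SD of 1, and none of the 10 genes is part of a list. On the monocyte score, Vcan rose by 0.90 ± 0.05 log2 units per SD (SE; r of 0.83), Fn1 by 0.79 ± 0.06 (r of 0.75), Thbs1 by 0.92 ± 0.07 (r of 0.74), Tgfbi by 0.19 ± 0.02 (r of 0.61) and Sdc1 by 0.53 ± 0.08 (r of 0.49). In all, 9 of 10 genes were called with this score, Sdc4 being the exception, beside 55% of tested genes, and 9 of 10 with the granulocyte precursor score, beside 52.1%. With date removed, the granulocyte precursor call was lost for Sdc3 and Plod2 (adjusted p of 0.148 and 0.235, limma). Every 1 of 11 tested granulocyte precursor markers went positively with Vcan, where 27.4% of all genes did, and with Fn1, where 31.5% did. With Thbs1 and Tgfbi 10 of 11 did, beside 34.6% and 27.5%, and with Sdc1 9 of 11, beside 36.4%. Outside the block, 8 of 11 did with Sdc3 and with Sparc, beside 31.6% and 4.57%. Other lists also went with the block: 4 of 5 tested megakaryocyte markers and 2 of 2 tested lymphoid markers were positive with each of its genes.

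By gene, the proteases of azurophil granules stood highest. Prtn3 (proteinase 3) and Ctsg (cathepsin G) had an r of 0.85 and 0.84 with Vcan, and Mmp8 (neutrophil collagenase) of 0.79. Of 10 monocyte markers, 6 went positively and 2 negatively with Vcan, beside 27.4% and 29.4% of all genes, so the negative share is not above the background. Ccr2, the chemokine receptor that brings monocytes into tissue, had an r of 0.91, Ly6c2 of 0.88 and Plac8 of 0.82. Treml4 and Cx3cr1, which mark patrolling monocytes, had an r of -0.40 and -0.35. Ly6c2 shares 22.1% of its 50-base stretches with other genes and is uncertain. Summed monocyte markers ran from 689 to 4467 CPM in males and 776 to 4759 CPM in females, and granulocyte precursor markers from 261 to 2316 CPM in males and 326 to 2404 CPM in females. Much of each sum was 1 gene: F13a1 had a median of 1313 CPM beside a monocyte sum of 1915 CPM, and Mmp8 of 365 CPM beside a granulocyte precursor sum of 727 CPM (medians over all libraries). Ly6g, the marker of mature neutrophils, had a median of 0.0223 CPM. In bulk cultures, more cells of such a type and more RNA per cell cannot be told apart.

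The partners with the highest and lowest r were sought among all genes with a mean log2 CPM of 1 or more. For Thbs1 they included Mefv (pyrin, r of 0.90) and Irf4 (a transcription factor, 0.88), with Stau2, which binds double-stranded RNA, lowest at -0.84. For Fn1 they were Sema4a (a semaphorin, 0.86), Ltb4r1 (a leukotriene B4 receptor, 0.86) and Ccr2 (0.83), with Ggact and Cds1 lowest at -0.81 and -0.78. For Vcan they were Ccr2 (0.91), Hp (haptoglobin, 0.91) and Ly6c2 (0.88), with Syngr1 at -0.72 and the tyrosine kinase Fer at -0.71. For Tgfbi they were Gramd4 (0.72), Vcan itself (0.72) and Tlr5 (the flagellin receptor, 0.71), with Fads6 at -0.69 and Stau2 at -0.67. Ccr2 and Stau2 each stood at the end of 2 of these 4 lists.

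Sdc1 had a different set of nearest genes. Csf2rb2 and Csf2rb, the β subunits of the receptors for IL-3 and GM-CSF, had an r of 0.94 and 0.93 with it, and the lysosomal protease Ctsl of 0.93. Their r was 0.88 to 0.98, 0.81 to 0.96 and 0.90 to 0.97 within plates. Csf2rb2 and Ctsl share 21.3% and 21.7% of their 50-base stretches with other genes and are uncertain. Cds1, an enzyme of phosphatidylinositol supply, and Jpt2 were lowest at -0.89 each. On the score of osteoclast markers Sdc1 rose by 0.78 ± 0.06 log2 units per SD (r of 0.73), led by Atp6v0d2 (r of 0.80), Ocstamp (0.70) and Mmp9 (0.62). Of 8 tested markers 7 went positively with Sdc1, where 36.4% of all genes did, but Nfatc1, a regulator of osteoclast formation, had an r of -0.41. The same list had 6 of 8 positive with Thbs1 and Sdc3 each, beside 34.6% and 31.6% of all genes. With Fn1 and Tgfbi it had 5 of 8 each, beside 31.5% and 27.5%.

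The cholesterol list ran against Sdc1. On the score of 20 cholesterol synthesis genes Sdc1 fell by 0.61 ± 0.07 log2 units per SD (r of -0.57, rho of -0.43), and 19 of the 20 genes went negatively with it, where 36.1% of all genes did. Ebp, Hsd17b7 and Acat2, which act in sterol synthesis or supply its precursor, had an r of -0.73, -0.68 and -0.67, and Tm7sf2, a sterol reductase, was the exception at 0.41. Acat2 shares 48% of its 50-base stretches with other genes and is uncertain. With the other genes of the block r was -0.42 for Tgfbi, -0.35 for Thbs1, -0.35 for Fn1 and -0.25 for Vcan, with 17, 17, 16 and 14 of 20 genes negative beside 29.2%, 35.5%, 33.1% and 29.4% of all genes. Within plates the Sdc1 r ran from -0.81 to 0.21 and was positive on 1 of 6 plates. Of the 10 genes 6 were called with this score, beside 59% of all tested genes, and Sdc4, Spp1, Sparc and Plod2 were not.

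Among surface proteoglycans, Srgn (serglycin) and the hyaluronan receptor Cd44 went with Sdc1 at r of 0.83 and 0.76 and with Sdc3 at 0.71 each, and Sdc2 went against them at -0.49 and -0.40. Of 16 tested genes of heparan sulfate synthesis and trimming, 6 went positively and 5 negatively with Sdc1 (beside 36.4% and 36.1% of all genes), 8 and 3 with Sdc3 (beside 31.6% and 32.4%), and 4 and 1 with Sdc4 (beside 10.2% and 9.66%). For Sdc1 these shares are near the background. Heparanase (Hpse) had an r of 0.82 with Sdc1 and 0.67 with Sdc3, and Hs6st1, a 6-O-sulfotransferase, of 0.71 with Sdc3 and 0.48 with Sdc4. For the shedding and scaffold partners of syndecans, Adam10 had an r of -0.35 and Tiam1 of 0.23 with Sdc4, and the other 7 of 9 were not called with it.

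Sdc3 went with genes of the hypoxia response, as did several of the other genes. It rose by 0.26 ± 0.02 log2 units per SD of the hypoxia score (r of 0.74, within-plate r of 0.63 to 0.82), and 12 of 14 hypoxia genes went positively with it, where 31.6% of all genes did. The same list had 11 of 14 positive with Sdc1 and 10 of 14 each with Thbs1 and Fn1, beside 36.4%, 34.6% and 31.5% of all genes, and its median r was 0.51 with Sdc3, 0.52 with Sdc1, 0.49 with Thbs1 and 0.46 with Fn1. Ero1a, an oxidase of the endoplasmic reticulum, Vegfa and Ndrg1 had an r of 0.69, 0.66 and 0.64. Pgk1 (0.79) and Bnip3 (0.70) share 63.9% and 51% of their 50-base stretches with other genes and are uncertain. In all, 8 of 10 genes were called with the score, all but Spp1 and Sparc, beside 65.4% of tested genes, and 64.1% of tested genes were called with Sdc3. The nearest genes to Sdc3 were Tgfb3 (r of 0.82), the myelin protein gene Pmp22 (0.82) and Gpi1 (0.81, a glycolytic isomerase that shares 25.0% of its stretches and is uncertain), and the lowest were Papss2, which makes the sulfate donor for glycosaminoglycans, at -0.82 and Ide at -0.80.

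Plod2 and Sdc4 also went with hypoxia genes. With Sdc4, 11 of 14 went positively, where 10.2% of all genes did, led by Adm (adrenomedullin) at an r of 0.46. Plod2 rose by 0.29 ± 0.05 log2 units per SD of the hypoxia score (r of 0.41), and 7 of 14 genes went positively with it beside 7.62% of all genes, with Ldha at 0.57 and Ero1a at 0.52 highest among those not marked as uncertain. Its nearest named gene over the table was Fam162a (r of 0.62), followed by the mitochondrial adenylate kinase Ak4 (0.57), and the lowest were Nacc2 (-0.55) and C2cd2 (-0.51). Of 11 tested genes of collagen hydroxylation and cross-linking, its own pathway, 2 went positively and 0 negatively with Plod2, beside 7.62% and 6.76% of all genes. The 2 were P4hb (r of 0.33) and Lox (0.25), and Plod1 and Plod3 had an r of 0.17 and -0.17. Sdc4 had its nearest genes in Gnb4 (0.58), Frmd6 (0.54, 23.5% shared and uncertain) and Mmp12 (macrophage elastase, 0.54), with Papss2 and Mr1 lowest at -0.54 and -0.53.

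Sparc followed a stromal set of genes. It was also called with Vcan (r of 0.39), Thbs1 (0.34) and Fn1 (0.32), the last of which was lost with no covariate removed (adjusted p of 0.104, limma). Sparc rose by 1.44 ± 0.06 log2 units per SD of the stromal score (r of 0.90, rho of 0.92, within-plate r of 0.87 to 0.95). All 8 tested stromal markers went positively with it, where 4.57% of all genes did, with Col3a1 at 0.88, Col6a1 at 0.87 and Col1a1 at 0.84. Of 5 tested matricellular genes Ccn2 (0.91), Tnc (0.88), Ccn1 (0.81) and Postn (0.77) went with it, and Mfge8, which macrophages make, had an r of 0.23 and was not called. These genes were all low: the medians were 0.768 CPM for Ccn2, 0.465 CPM for Col3a1 and 0.544 CPM for Col1a1, so r rests on few counts per library, and whether shared depth adds to it was not tested. Vcan also went positively with 8 of 8 stromal markers, where 27.4% of all genes went positively with Vcan, with Col5a1 highest at 0.54. The stromal score was called with 6 of 10 genes, beside 9.43% of tested genes: Sparc, Vcan, Fn1, Thbs1, Spp1 and Tgfbi. The call was lost for Spp1 with date removed and for Tgfbi with no covariate removed (adjusted p of 0.0549 and 0.146, limma). Among more abundant genes Ptgs2 (cyclooxygenase 2, 0.60) and Cd38 (0.52) were among the nearest to Sparc, and Cuedc1 and Cxcl14 the lowest at -0.43 and -0.41. Whether stromal cells were carried into the cultures was not tested.

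**Figure D5:**
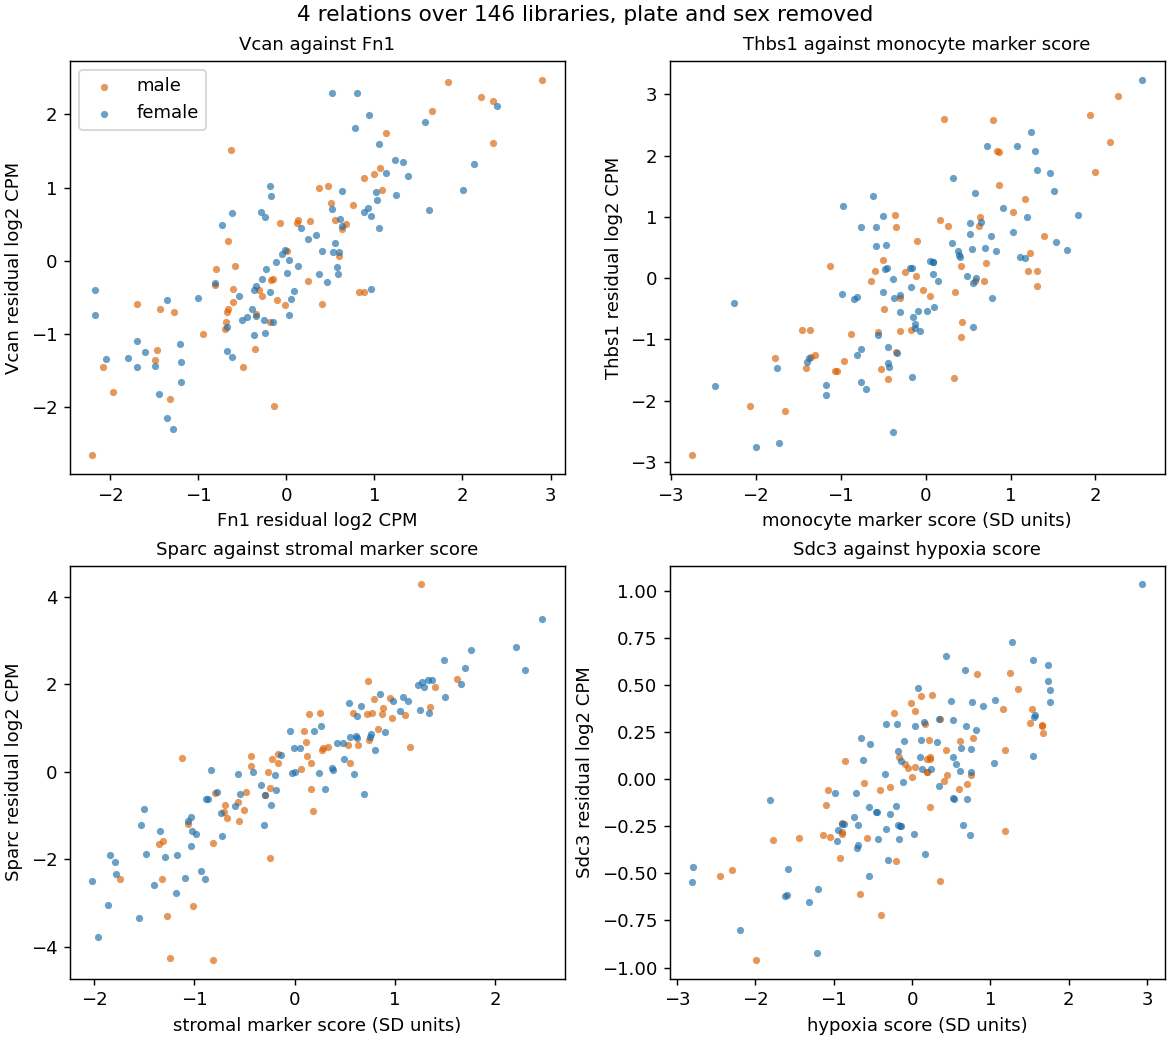
Residual log2 CPM of Vcan against Fn1, Thbs1 against the monocyte score, Sparc against the stromal score and Sdc3 against the hypoxia score, 1 point per library (male orange, female blue). The points follow a line in each panel, with r of 0.81, 0.74, 0.90 and 0.74 over 146 libraries, and both sexes lie along it.

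Osteopontin was the most separate of the abundant genes. Its nearest gene was Pkd2 (polycystin 2, r of 0.61 and rho of 0.54, within-plate r of 0.38 to 0.85), which lies next to it on the same strand of chromosome 5: Spp1 spans 104435118 to 104441050 and Pkd2 104459450 to 104505819 in GRCm38, 18.4 kb downstream. Pkd2 ran from 4.12 to 32.1 CPM, far below Spp1, and Pkd2 shares 0.604% of its 50-base stretches with other genes. Whether reads run through from Spp1 was not tested. Pcdh7 (0.53, 23.5% shared and uncertain) and Pros1 (protein S, 0.52) came next, and Gas6, the other ligand of the same receptor family as protein S, was lowest at -0.52, with Cmtm4 at -0.50. Of 12 matrix receptors in the list, 2 were called with Spp1, both negatively, where 2.74% of all genes were: the integrin β1 chain Itgb1 had an r of -0.34 and Stab1 of -0.30, and the other 10 of 12 matrix receptors, the αv integrin chain and its β3 partner included, were not called.

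The TGF-β list gave a mixed picture for the 2 genes named after or known for that pathway. Of 14 tested genes, 5 went positively and none negatively with Tgfbi, beside 27.5% and 29.2% of all genes, with Tgfb3 (r of 0.44) and Tgif1 (0.41) among them. With Thbs1, which can activate latent TGF-β, 4 went positively and 2 negatively, beside 34.6% and 35.5% of all genes. For Thbs1 neither share is above the background. Tgfb3 had an r of 0.69 with Thbs1, and Ski, a repressor of the pathway, of -0.49. Tgfb1 and Smad3 had an r between -0.04 and 0.02 with both Tgfbi and Thbs1. Among 12 matrix receptors 4 went positively and 7 negatively with Fn1, beside 31.5% and 33.1% of all genes, so the positive share is near the background. The integrin chains Itgb2 and Itgb3 had an r of 0.66 and 0.46, whereas Itgb5 and Itgav had one of -0.50 and -0.47.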

How the data were processed

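Polyadenylated RNA was sequenced as 100 bp paired reads. Per the submitters' processing notes, FastQC, TopHat2 2.0.11, HTSeq 0.6.1 and DESeq2 were used and the build was GRCm38 (mm10). The deposited raw counts (22721 genes) were used for every test, and their column sums give the depth. The deposited log2 values of a variance-stabilising transformation (VST), which hold 9 of the 10 genes (not Sparc), served as an alternative. Libraries were taken as separate mice, 60 male and 86 female, and all were kept.

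The 10 genes and all gene lists were chosen with earlier results of these data known. Identifiers were named from GENCODE M21 (21899 matched; the rest held 0.160% of counts). CPM was divided by the length of merged exons for RPKM. Sex, plate and date were tested with edgeR 4.0.16 (TMM, filterByExpr, quasi-likelihood) in R 4.3.3 over 12060 genes, with plate as covariate of sex and sex as covariate of date. Log2 CPM with a prior count of 2, with plate and sex removed, was regressed on each gene and each of 16 list scores with limma 3.58.1. Adjusted p is Benjamini-Hochberg over all genes, with a threshold of 0.05. There were 45 pairs, 160 relations with scores and 50 named partners, and permutations (100000, two-sided) were run within plates. Permutation p does not allow for likeness between mice of 1 date.

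Text names the 3 highest and 2 lowest partners of each gene, up to 3 genes of a list by p or r, and lists by their counts. Partners on chromosome 18 and some other genes that this rule gives are not reported here. Genes that share 20% or more of their 50-mers with another gene are called uncertain. The scripts were tested on simulated data. Counting error limits Sparc and Plod2, and floors use 3 counts. Alternatives were other size factors, no filter, voom, DESeq2 1.42.0, other batch terms, VST, a prior count of 0.5, single plates, other lengths and left-out libraries.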

Additional observations from a re-analysis of the deposited data

Results flagged for a closer look

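Within each plate or date label of 4 to 10 libraries, the highest or lowest library of each gene was set against the gap that Dixon's criterion allows at the 95% level, on the log2 scale. This marked 17 of 170 groups of values, and 30 on the CPM scale. Chance marks about 1 in 20 groups.

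Female library 21 was marked 3 times: Spp1 at 8935 CPM on plate 1, where the next library had 1263 CPM, Sdc3 at 526 CPM on plate 1, where the next had 1025 CPM, and Vcan at 535 CPM on 28/10/2010, where the next had 53.7 CPM. In this library the summed granulocyte precursor markers were 2404 CPM, above all others, stromal markers were 57.1 CPM, with 3 libraries above it, and Plod2 was 1.76 CPM, with 95 above it.

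Male library 37 stood above the other 4 libraries of 2011-10-03 in Thbs1 (290 CPM, the next 25.5 CPM) and Sdc1 (118 CPM, the next 14.2 CPM). On 22/07/2010 female library 25 was low in Sdc1 (69.1 CPM, the next 171 CPM) and male library 7 in Sparc (0.203 CPM, the next 0.864 CPM). Male library 24 was low in Thbs1 on 23/09/2010 (12.0 CPM, the next 52.5 CPM), and male library 35 in Sparc on 17/03/2011 (0.0150 CPM, the next 0.786 CPM). Female library 51 was high in Fn1 on 25/11/2010 (454 CPM, the next 110 CPM). Female library 64 was high in Sdc3 on 17/03/2011 (1547 CPM, the next 1014 CPM).

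Spp1 was high in female library 76 on 14/04/2011 (4008 CPM, the next 1257 CPM) and in female library 53 on 2010-02-12 (2755 CPM, the next 1308 CPM). Sdc4 was high in female library 75 on 14/04/2011 (120 CPM, the next 95.7 CPM) and in female library 54 on 2010-02-12 (93.6 CPM, the next 83.6 CPM), and low in male library 6 on 16/06/2011 (69.1 CPM, the next 93.7 CPM). Tgfbi was low in female library 17 on 16/06/2011 (335 CPM, the next 441 CPM).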

How the results depend on the processing

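Plod2 was called for sex under each of 9 alternatives, with log2 differences from -0.70 to -0.60. The number of genes called for sex was 926 without the 6 libraries that went against their labels, against 605, and 543 without female library 21 (chosen after seeing the data). Without the 6 libraries that went against their labels, the sex by plate count was 1 against 5. Vcan turned sign for sex with date in place of plate (0.0189), with plate and date (0.102), with no batch term (0.0773) and without female library 21 (0.0182), at adjusted p of 0.825 or more. With date in the model, plate was called for 1332 genes and for 0 of the 10. Spp1 with Plod2 turned positive with date removed (0.195), with nothing removed (0.0443) and without the 2 farthest libraries (0.0166), and Sdc3 with Spp1 with date removed (0.0304). Called pairs were 14, 8, 12, 10, 13 and 11 of 45 within plates 2, 3, 4, 7, 8 and 10, where fewer libraries enter, and 21 to 26 under the settings that use all plates (21 of 36 with VST). Of the 25, Sdc3 with Plod2, Spp1 with Sparc and Vcan with Sdc3 were lost with date removed, Fn1 and Sdc1 with Sparc with nothing removed, and Sdc1 and Spp1 with Sparc without the 2 farthest libraries. Tgfbi had 154 RPKM with the longest transcript. Calls with date removed were lost for Sdc3 and Plod2 on the granulocyte precursor score and for Spp1 on the stromal score, and with nothing removed for Tgfbi on the stromal score. The cause of these changes was not tested unless stated. No paired analysis was possible because replicate numbers only name the mice. Counting error limits Sparc and Plod2.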
